A study of Caenorhabditis elegans with 2 samples.

Results

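The mitochondrial ribosomal protein genes of Caenorhabditis elegans were taken as all protein-coding genes whose Ensembl name begins with mrpl- or mrps-. This gave 70 of 19985 protein-coding genes, of which 41 carry a large subunit name (mrpl) and 29 a small subunit name (mrps). Peaks of chromatin immunoprecipitation with sequencing (ChIP-seq) of DAF-8 were looked up at their promoters, taken here as windows at annotated transcript starts. For each gene, the strongest ranked peak was taken whose summit lay from 1000 bp upstream to 250 bp downstream of a transcript start of that gene. The rule for the genes uses their names and no value of a peak, but it was chosen with earlier results of these data known.

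The samples were 2 biological replicates of 1 group, so no condition was compared and no test between groups exists. They were whole L4 larvae of strain OP790, 47 hours old, synchronised by bleaching and L1 starvation. Both replicates carry the transgene wgIs790, which encodes DAF-8 fused to TY1, EGFP and 3xFLAG with unc-119(+) as the rescue marker, in the mutant background unc-119 (tm4063). The precipitation used an antibody against GFP. The series thus describes 1 transgenic line, in which no daf-8 mutation is labelled, and a signal from whole animals does not show in which tissue a site was bound. A sample without the tagged protein was not analysed here.

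Mitochondrial ribosomes translate the few proteins that the mitochondrial genome encodes, which are subunits of the respiratory chain and of the ATP synthase. Their own proteins are encoded in the nucleus, made in the cytosol and imported. DAF-8 is one of the SMAD proteins through which receptors of the DAF-7 TGF-beta pathway act. In C. elegans this pathway controls entry into the dauer larva, fat storage and egg laying. SMAD proteins bind DNA at the short core GTCT, or AGAC on the opposite strand. Knockdown of mitochondrial ribosomal protein genes such as mrps-5 is known to lengthen lifespan and to induce the mitochondrial unfolded protein response in C. elegans.

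The sequences at 6 of the summits of the 12 strongest members are printed to show what lies under some of the strongest peaks. They were read from the RefSeq genome of the same assembly (ce11), on the plus strand, 5′ to 3′. The window is 100 bp on each side of the summit for mrps-28 and for the site shared by mrps-24 and mrpl-1, and 50 bp on each side for the others. Capitals mark GTCT or AGAC, and in mrps-28 also TCGAACC, the reverse complement of GGTTCGA, the box inside tRNA genes that is bound by the RNA polymerase III factor TFIIIC. The positions are chrV:19643141-19643341 for mrps-28, chrIV:7709978-7710178 for mrps-24 and mrpl-1, chrIV:1056019-1056119 for mrps-25, chrII:8525806-8525906 for mrps-18B, chrII:10581929-10582029 for mrps-22 and chrIII:10615444-10615544 for mrpl-22.
mrps-28: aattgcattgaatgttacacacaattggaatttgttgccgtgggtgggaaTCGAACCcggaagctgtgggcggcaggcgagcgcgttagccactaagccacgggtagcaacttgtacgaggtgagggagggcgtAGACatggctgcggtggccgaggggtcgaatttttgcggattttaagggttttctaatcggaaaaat
mrps-24: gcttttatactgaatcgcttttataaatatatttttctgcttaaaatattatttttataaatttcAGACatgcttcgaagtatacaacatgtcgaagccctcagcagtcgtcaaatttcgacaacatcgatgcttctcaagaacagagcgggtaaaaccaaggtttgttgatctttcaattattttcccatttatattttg
mrps-25: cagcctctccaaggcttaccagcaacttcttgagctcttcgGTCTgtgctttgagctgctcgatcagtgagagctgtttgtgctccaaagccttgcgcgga
mrps-18B: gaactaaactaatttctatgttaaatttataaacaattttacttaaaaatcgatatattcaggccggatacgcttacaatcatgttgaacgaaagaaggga
mrps-22: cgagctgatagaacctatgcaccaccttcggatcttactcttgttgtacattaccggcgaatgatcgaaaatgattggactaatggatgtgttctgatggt
mrpl-22: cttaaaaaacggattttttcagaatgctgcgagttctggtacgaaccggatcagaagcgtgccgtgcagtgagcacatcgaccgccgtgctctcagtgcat
The windows of mrps-28, mrps-24 and mrps-25 hold 1 GTCT or AGAC each, and those of mrps-18B, mrps-22 and mrpl-22 hold none. The 6 were not taken in order of signal, so this count holds for them only. The second strongest member, mrpl-19, is not printed and had 2 within 50 bp of its summit.

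Most of these genes had a peak in the ranked list, and nearly all of the peaks missed the authors' threshold. In the list that compares both replicates, 58 of the 70 genes (82.9%) had a ranked peak, beside 77% of all protein-coding genes. Only mrps-28, whose human homologue is a protein of the small subunit, had a peak that the authors kept after thresholding on the IDR. The IDR, or irreproducible discovery rate, estimates in this list how large a share of the peaks ranked at least as high would not repeat between replicates. In a list of 1 replicate alone the IDR cannot measure that, and in the pooled list it is not read so here. A kept peak thus lay at 1 of 70 genes, or 1.43%, beside 0.49% of all protein-coding genes. The 95% Wilson interval over genes was 0.253% to 7.66%. The share of all genes lies inside that interval, so the count of 1 does not set the genes apart. The list holds 101032 ranked and 240 kept peaks, and the highest IDR among the kept ones was 0.00997.

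The signal of a peak is the authors' deposited peak height, whose scaling for depth was not given in the sources used here. The median of the strongest promoter signal was 23.8 over the 58 genes and 22.5 over the 15398 protein-coding genes that had a peak. The quartiles were 16.5 and 34.1 for the 58 genes and 16.5 and 29.4 for all genes. With genes without a peak ranked lowest, the 70 genes had a median percentile of 56.9 among all protein-coding genes, where the median gene has 50. Where each peak was given only to the nearest start, the median percentile was 49.5, which is below 50. The 34 large subunit genes with a peak had a median signal of 23.3, and the 24 small subunit genes one of 24.5. The lower quartiles were alike, and the upper quartile was the higher one in the mitochondrial ribosomal genes.

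**Figure D1:**
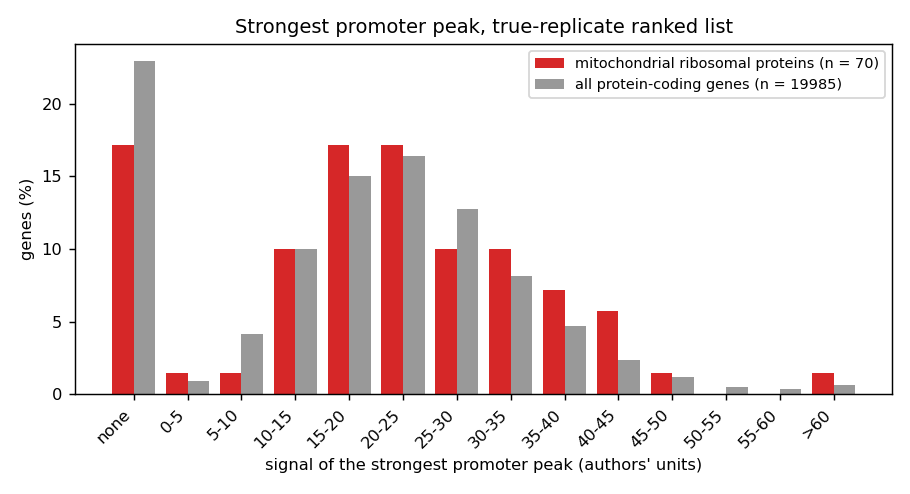
Share of genes (percent, vertical) by the signal of their strongest promoter peak (authors' units, horizontal, with genes without a peak at the left) for the 70 mitochondrial ribosomal protein genes and all 19985 protein-coding genes. Among genes with a peak both are highest between 15 and 25, with medians of 23.8 and 22.5, and mrps-28 at 83.9 is the only member in the last class.

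In the list that compares both replicates, the subunits were ordered differently at the upper end and over all their genes. At or above the 90th percentile of all protein-coding genes, which 10% of genes reach by construction, lay 11 of the 70 genes (15.7%), the lowest signal that reaches it being 34.8. They were 3 of 41 large subunit genes, mrpl-1, mrpl-19 and mrpl-32, and 8 of 29 small subunit genes, mrps-6, mrps-18B, mrps-22, mrps-24, mrps-25, mrps-27, mrps-28 and mrps-30. The genes mrpl-1 and mrps-24 are counted here on the same peak, once in each subunit. The names give the subunit as annotated in worms, and the human homologue of mrps-30 is a protein of the large subunit. Over all genes, those without a peak included, the median percentile was 57.2 for the large subunit and 46.1 for the small one, the reverse order. The large subunit also had the higher median percentile in the pooled list, but in neither replicate alone. There it was 53.8 for the large subunit and 55.4 for the small one in replicate 1, and 53.99 and 64.9 in replicate 2. No test of the difference between the subunits was made.

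**Figure D2:**
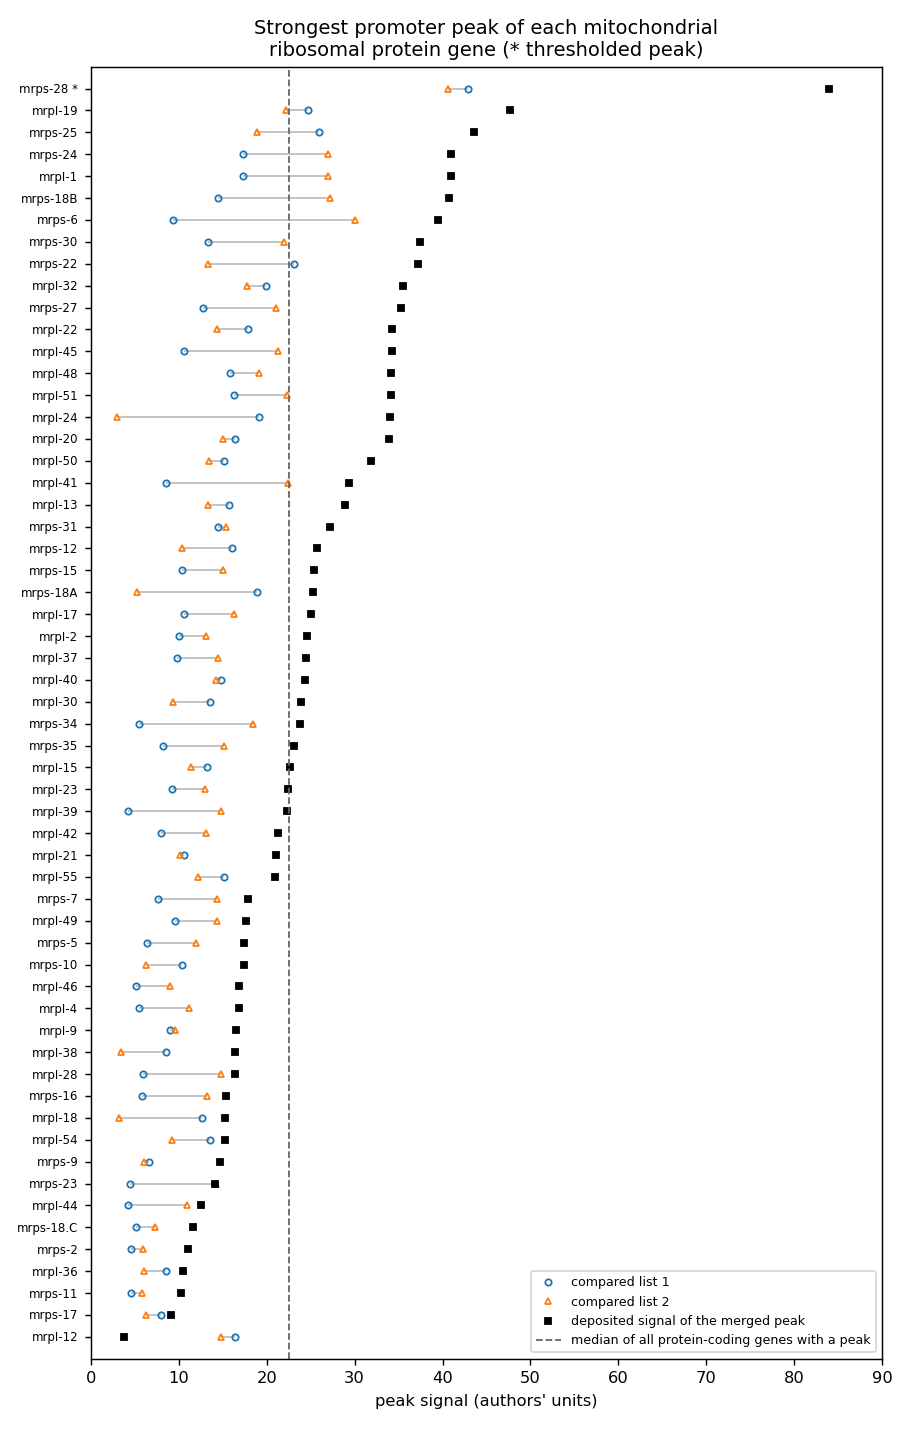
Signal of the strongest promoter peak (horizontal, authors' units) of each of the 58 members with a peak, in order of signal: squares for the true-replicate list, open symbols for the same peak in the compared lists, and a dashed line at the median of all genes with a peak, 22.5. The asterisk marks the kept peak of mrps-28 at 83.9, and the next member, mrpl-19, is at 47.7.

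The peak counted for mrps-28 had a signal of 83.9, rank 78 in the list, and an IDR of 0.0016. Its signals in the 2 compared lists were 42.9 and 40.6 (mean 41.7 ± 1.63, SD, n = 2 replicates). The lists therefore gave close values, and its percentile among all genes was 99.8. The pooled list carried the same signal for this site, 83.9, with an IDR of 0.00101. It also carried the same signal for most other members, such as mrpl-19 (47.7) and mrps-25 (43.6). The equal value is therefore not a second measurement.

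The place of this peak relative to mrps-28 is at the edge of the window. The peak spans chrV:19643079-19643402 and its summit, at 19643241, lies 998 bp upstream of the start of mrps-28, a gene on the plus strand at 19644239 to 19645676. The summit lies 789 bp inside Y43F8C.7, the divergent neighbour on the minus strand at 19641292 to 19644030, in an intron of that gene. It is 54 bp from Y43F8C.22, a snoRNA gene of 138 bp on the minus strand at 19643050 to 19643187. The base composition within 50 bp of the summit was 64.4% G and C, where the median of the 58 genes was 37.6% and that of all genes 38.6%.

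The site was called in each replicate to a different degree. In the list of replicate 1 alone the site was kept, at a signal of 42.9 and an IDR of 0.00708. In the list of replicate 2 alone it was not kept, at 40.6 and an IDR of 0.0224. Their summits lay 1005 bp and 1036 bp upstream of mrps-28, just outside the window. In replicate 1 alone mrps-28 thus counts as not kept because of the window. In replicate 2 alone the site missed the threshold as well. The strongest peaks inside the window were 10.1 in replicate 1 and 22.2 in replicate 2. The single kept call thus rests on a summit 2 bp inside the window, and it belongs to mrps-28 by the window rule and not by the nearest gene.

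The large subunit gene mrpl-19 had the second highest signal, 47.7, with 24.7 and 22.2 in the compared lists and an IDR of 0.0649. Its summit lay in its own intron, 195 bp downstream of a start. The small subunit gene mrps-25 had a signal of 43.6, with 26.0 and 18.9 in the compared lists (mean 22.4 ± 5.01, SD, n = 2 replicates) and an IDR of 0.11. Its summit lay 823 bp upstream, in a coding exon of the divergent gene Y55F3AM.13 and 244 bp from the start of that gene. Both genes lie far above the median of the group and well short of the threshold, and they are the members nearest to it on the outer side. In the pooled list their IDR was 0.0406 and 0.0365, which also missed it.

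A single peak served a pair of members. The genes mrps-24 and mrpl-1 stand head to head, and their shared peak at chrIV:7709916-7710239 had a signal of 41.0 with 17.3 and 27.0 in the compared lists and an IDR of 0.126. Its summit lay 33 bp downstream of the start of mrps-24, in a coding exon, and 377 bp upstream of mrpl-1. The gene emc-6 starts 342 bp from the same summit. In bacteria the homologue of MRPS-24 sits where the messenger RNA enters the ribosome, and the homologue of MRPL-1 forms a mobile stalk near the site where tRNA leaves. Because of the shared peak, the 58 genes rest on 57 distinct peaks.

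The next members by signal were all small subunit genes. The gene mrps-18B had a signal of 40.8, with 14.5 and 27.1 in the lists and an IDR of 0.228, and its summit lay 175 bp downstream of its start in an intron. The gene mrps-6 had 39.4, with 9.31 and 30.0 in the lists (mean 19.7 ± 14.7, SD, n = 2 replicates) and an IDR of 0.571. In mrps-6 the value of list 2 was thus far above that of list 1, and the IDR was the highest of the upper group. Of the next genes, mrps-30 had 37.4 with 13.3 and 21.96 in the lists. The gene mrps-22 had 37.2 with 23.1 and 13.3, and its summit lay in a coding exon of dap-3, the gene in front of it that itself encodes a homologue of a mitochondrial ribosomal protein. Their IDR was 0.336 and 0.331.

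The remaining 3 of the 12 highest were mrpl-32, mrps-27 and mrpl-22. In yeast and mammals, the homologue of MRPL-32 is matured in the mitochondrion by the m-AAA protease, and its gene had a signal of 35.4 with 19.9 and 17.7 in the lists. Its summit lay in an untranslated exon of rpn-3. The gene mrps-27 had 35.3 with 12.8 and 21.0 in the lists. The gene mrpl-22, whose bacterial homologue lines the exit tunnel of the ribosome, had 34.3 with 17.8 and 14.3 in the lists and a summit 28 bp downstream of its start. Their IDR was 0.219, 0.371 and 0.359.

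The lowest signals came from 5 genes. The gene mrps-2 had 11.0 with 4.59 and 5.92 in the compared lists. The gene mrpl-36 had 10.5 with 8.57 and 6.03. The gene mrps-11 had 10.2 with 4.54 and 5.84. All of these had the maximum IDR of 0.827. The gene mrps-17 had 9.05 with 7.91 and 6.31, also at the maximum IDR. The lowest value of all, 3.74, belonged to mrpl-12, whose bacterial homologue forms the stalk that recruits translation factors. Its signals in the compared lists were higher than its own value, 16.4 and 14.8 with an IDR of 0.377, and the centres of its peak in the 2 lists lay 280 bp apart. The other 41 genes had signals from 11.6 to 34.3. Among them mrps-5, named here for its known role, had 17.4, with 6.33 and 11.997 in the lists.

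No ranked peak fell in the window of 12 genes. They were the large subunit genes mrpl-10, mrpl-11, mrpl-16, mrpl-34, mrpl-35, mrpl-47 and mrpl-53, and the small subunit genes mrps-14, mrps-18C, mrps-21, mrps-26 and mrps-33. Of these, mrpl-16, mrpl-47, mrps-18C, mrps-26 and mrps-33 had no peak in the window in any of the 4 ranked lists. The gene mrps-18C is annotated apart from mrps-18.C, which had a signal of 11.6. The other 7 had one in at least 1 of the other lists. The highest of these was at mrps-21, with a signal of 21.7 in replicate 2 alone and 18.1 in the pooled list. At mrpl-34 the values were 6.44 in replicate 1, 9.92 in replicate 2 and 14.9 in the pooled list. Absence from the list therefore does not show that a promoter had no signal.

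In each replicate alone, fewer genes had a peak, and none was kept. In replicate 1, 40 of the 70 genes had a ranked peak (57.1%), beside 50.7% of all genes. In replicate 2 they were 45 (64.3%), beside 55.1%. A kept peak was found in the window of 0 of 70 genes in both replicates, which allows a share of up to 4.29% (3 counts of the 70, the limit used here for a count of 0 in place of a Wilson interval, covering counting error over genes only), beside 0.15% of all genes in replicate 1 and 0.18% in replicate 2. In the pooled list, 61 genes had a ranked peak (87.1%), beside 81.3%, and 1 gene, mrps-28, had a kept one, beside 0.59%. The share of ranked genes was thus above that of all genes in each of the 4 lists, which are made from the same 2 libraries; no test of this was made.

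The median signal of the members was 13.6 in replicate 1, where all genes had 14.1, and 15.4 in replicate 2, where all genes had 15.1. Their median percentile was 54.5 in replicate 1 and 62.9 in replicate 2 (SD between the replicates 5.93, n = 2). A peak in the window was found in both replicates alone for 32 genes and in neither for 17. The strongest peak of replicate 1 alone was at mrps-25, with 26.0, and that of replicate 2 alone was at mrpl-42, with 31.2 and an IDR of 0.145. In replicate 1 alone the lowest IDR of a peak in the window of a member was 0.266, at mrpl-55, with a signal of 15.1. The genes mrpl-42 and mrpl-55 are named here after their values were seen.

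The 2 compared lists of the true-replicate list carry no replicate number. By position and signal, the entries of list 1 were identical to peaks of replicate 1 alone for 50963 of 101032 peaks (50.4%) and to those of replicate 2 for 0. The entries of list 2 were identical to peaks of replicate 2 alone for 47615 (47.1%) and to those of replicate 1 for 0. Among the 58 genes, list 2 had the higher signal in 33 and list 1 in 25. The lists differed by less than 1.5-fold in 30 genes and by more than 2-fold in 14, the largest difference being 6.53-fold at mrpl-24, with 19.2 and 2.94. Across the 58 genes, the log2 signals of the lists had a Pearson correlation of 0.312 and a Spearman correlation of 0.353, and across all 15398 genes of 0.193 and 0.178. These are correlations across genes that share both libraries, given as a description. The centres of the peak in the lists lay a median of 58 bp apart for the members and 71 bp for all genes, and over 100 bp apart for 17 members (29.3%) and 38.4% of all genes.

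**Figure D3:**
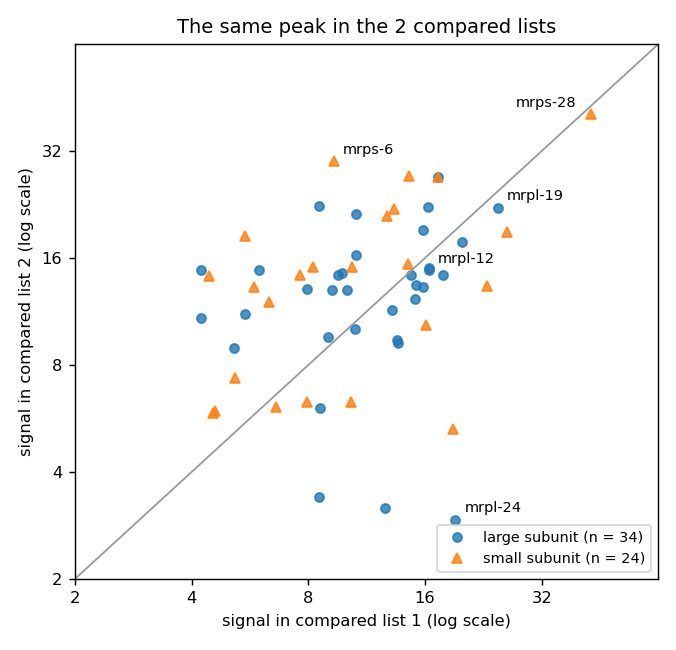
Signal of the strongest promoter peak in compared list 1 (horizontal, authors' units, log scale) and compared list 2 (vertical, same) for the 34 large and 24 small subunit genes with a peak; the line marks equal values. The gene mrps-28 lies at 42.9 and 40.6, and mrps-6 at 9.31 and 30.0.

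Few of the peaks were called with a low IDR. It was at its maximum of 0.827 for 18 of the 58 genes (31.0%), beside 32.3% of all genes with a peak, and its median was 0.578, beside 0.618. An IDR of at most 0.2 was reached by 5 genes (8.62%), beside 6.32%. These shares were close to those of all genes with a peak. The nearest kept summit lay a median of 151 kb from the start of a member and 181 kb from that of all genes, and 1 member (1.43%) had one within 10 kb, beside 4.51%. The farthest was at mrps-12, 1195 kb away. That gene is named here after its value was seen.

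The position of the summits was described next. Relative to the nearest own start, the median was −176 bp for the members (quartiles −596.5 and 22 bp, negative values lying upstream). For all genes it was −338 bp (quartiles −662 and −12.3 bp). In the replicates alone the median of the members was −228 bp in replicate 1 and −374 bp in replicate 2 (SD 103 bp, n = 2). Medians of all genes in the replicates alone were not set beside these. Within 250 bp of the start lay 30 of the 58 summits (51.7%), beside 42.7%, and more than 500 bp upstream lay 19 (32.8%), beside 37.2%. The start of the member itself was the nearest protein-coding start for 43 (74.1%), beside 83.3%. For the other 15 the start of another gene was nearer, as for mrps-28, mrps-25 and mrpl-1. Under the summit lay a coding exon in 24 genes (41.4%), beside 28.1% of all genes, an untranslated exon in 10 (17.2%, beside 7.27%), an intron in 9 (15.5%, beside 18.4%) and no protein-coding gene in 15 (25.9%, beside 46.2%).

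**Figure D4:**
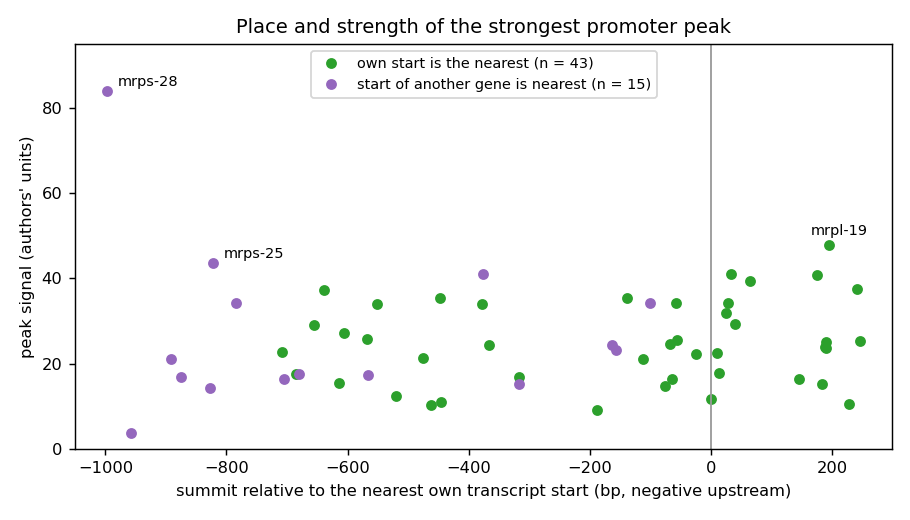
Summit position relative to the nearest own transcript start (bp, negative upstream) against the signal of the strongest promoter peak for the 58 members. Colours tell the 43 summits nearest to the start of the member from the 15 nearer to another gene, and mrps-28, at −998 bp and 83.9, is one of the 15.

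Most of the genes have a close neighbour. Directly behind a gene on the same strand, at a gap of at most 500 bp, lay 28 of the 70 (40%), beside 19.8% of all protein-coding genes. Head to head with another gene, with starts at most 1000 bp apart, lay 28 (40%), beside 18.2%. Genes that met both conditions were counted in the first class only. The other 14 (20%) stood apart, beside 62.0%. The median signal was 24.6 in the first class, 24.4 in the second and 16.8 in the third, over 23, 24 and 11 genes with a peak. Medians of all genes by class were not set beside these. In the head to head class 12 of 24 summits were nearer to the start of another gene. Whether a peak in this window belongs to the member or to its neighbour was not tested. Genes of the first class may lie in an operon, transcribed together with the gene in front from a shared promoter. Whether their annotated starts have a promoter of their own was not tested.

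By chromosome, 22 of the 70 genes (31.4%) lie on chromosome III, beside 13.2% of all protein-coding genes, and none lies on X, beside 13.7%. There are 15 on I, 12 on II, 11 on IV and 10 on V. The median signal was 25.4 on I, 29.4 on II, 21.0 on III, 24.6 on IV and 19.96 on V. All 10 genes on V had a ranked peak, and the genes without one were 5 on III, 3 on II, 2 on I and 2 on IV. Over all chromosomes, 77% of all protein-coding genes had one. For these 5 chromosomes singly, neither that share nor the median signal of all genes was set beside the members. The counts therefore describe the members only.

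Short motifs and small RNA genes at the summits were counted beside those of all genes with a peak, with no test. GTCT or AGAC, searched on both strands within 50 bp of the summit, was found in 25 of 58 genes (43.1%), beside 41.4% of the 15398 genes. Within 100 bp it was found in 42 (72.4%), beside 64.4%. The palindrome GTCTAGAC, which holds both cores, was found within 100 bp in 0 members and in 0.182% of all genes. The box GGTTCGA, on either strand within 100 bp, was found at 2 members, mrps-28 and mrpl-4 (3.45%), beside 1.75%. A tRNA, snRNA, snoRNA or rRNA gene lay within 200 bp of the summit of the same pair (3.45%), beside 1.26%. It was the snoRNA gene Y43F8C.22 at mrps-28 and the snoRNA gene T23B12.13 at mrpl-4, 78 bp from the summit and inside an intron of mrps-2, the gene in front of mrpl-4. The part of these small RNA genes in the signals was not tested.

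Other gene lists of mitochondrial function were set beside the members. Of the mitochondrial translation factors and tRNA enzymes, 23 of 33 names were found in the annotation, and 1 of the 23 had a kept peak (4.35%). It was mtcu-2, whose homologues modify mitochondrial tRNAs, with a signal of 111 and 40.2 and 66.1 in the compared lists. The next highest, ears-2, a mitochondrial glutamyl-tRNA synthetase, had 47.4. The median signal of this list was 30.3. In the respiratory chain and ATP synthase list 3 of 38 genes had a kept peak (7.89%). These were cox-5B and cox-6A, subunits of cytochrome c oxidase, with 86.0 and 82.9, and atp-1, the alpha subunit of the ATP synthase, with 61.3. The peak of cox-6A lay within 200 bp of the snRNA gene F54D8.7. The median signal of that list was 27.1.

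No gene had a kept peak in the other mitochondrial lists. Of the mitochondrial chaperones and proteases, 12 of 13 names were found, with a median signal of 26.1. The highest were timm-23, a subunit of the import channel of the inner membrane, with 57.3, and clpp-1, a matrix protease, with 45.8 and tRNA genes within 200 bp of its summit. Of the mitochondrial transcription and DNA maintenance genes, 5 of 6 names were found, with a median of 20.004. The helicase gene twnk-1 had 36.2 and the RNA polymerase gene rpom-1 had 23.8. Of the cytosolic ribosomal protein genes, 7 of 81 had a kept peak (8.64%, 95% Wilson interval 4.25% to 16.8% over genes), and their median signal was 29.3. They were rpl-3, rpl-15, rpl-20, rpl-35, rps-1, rps-19 and rps-24, and the highest was rpl-20 with 122. The share of kept peaks was 1.43% in the mitochondrial ribosomal genes, with an interval up to 7.66%, so the intervals of both kinds of ribosomal protein gene overlap. No test between lists was made. The lists were chosen with earlier results of these data known, so their shares and intervals are a description only.

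**Figure D5:**
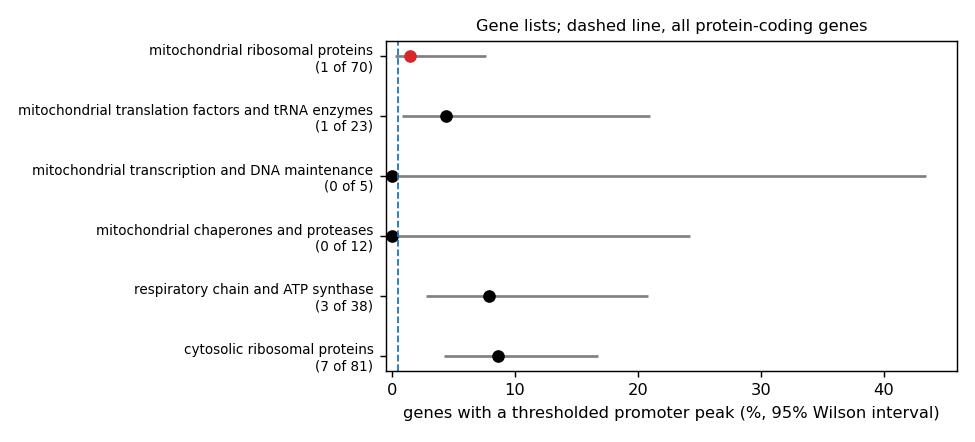
Share of genes with a kept peak in the promoter window (percent, horizontal) for the mitochondrial ribosomal protein genes and 5 other lists; points give the share, bars the 95% Wilson interval over genes, and the dashed line the 0.49% of all protein-coding genes. The interval of the mitochondrial ribosomal protein genes, 0.253% to 7.66%, includes the dashed line. Those of the respiratory chain (2.72% to 20.8%) and the cytosolic ribosomal proteins (4.25% to 16.8%) lie above it. That of the translation factors (0.772% to 21.0%) also lies above it but rests on 1 kept gene of 23, and no test was made. Those of the 2 lists with a count of 0 start at 0. The lists were chosen with earlier results of these data known, so the intervals are a description only.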

How the data were processed

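Peak lists of 2 biological replicates were used, with ce11 positions according to their names. The deposited readme texts give, for all lists, the alignments of the replicates and 1 file common to both, and for the thresholded lists 1 more file of annotation. The peak caller, the aligner, the kind of control and the scaling for depth were not given in the sources used here. The signal is the height of a peak as deposited. The authors' deposited score is an integer that follows from the IDR, and it was not analysed further. The ranked lists also carry the −log10 of the IDR in a deposited column, from which the IDR was computed. No list holds read counts, so the depth is unknown and the intervals on shares cover counting error over genes only. The true-replicate list was the main list, since it compares both replicates.

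Genes and starts came from Ensembl release 115 for WBcel235, the same assembly as ce11, and sequence from RefSeq. The lists' names were matched to gene names by exact spelling. Coordinates count from 1. The authors' threshold was taken as an IDR of 0.01. Named are genes with a kept peak, the 12 highest, the 5 lowest, those nearest to the threshold and those with no peak, and in the other lists genes with a kept peak and the 2 highest; exceptions are marked. The members and lists were chosen with earlier results of these data known. The assignment of peaks to genes was tested on simulated data. Python 3.11.15, pandas 2.3.3, numpy 2.4.6, scipy 1.17.1 and statsmodels 0.14.6 were used, and figures were drawn with matplotlib 3.10.9. Alternatives were the window, the start used, the list, the IDR threshold, the distances for motifs and small RNA genes, and each replicate alone.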

Additional observations from a re-analysis of the deposited data

How the results depend on the processing

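The count of 1 gene with a kept peak fell to 0 with a window of 500 bp upstream (0.35% of all genes), where each peak was given only to the nearest start (0.395%), and at an IDR of at most 0.001 (0.115%). It ranged from 0 to 0 without replicate 1 or without replicate 2. The gene lost is mrps-28: its summit lies 998 bp upstream, Y43F8C.7 starts nearer, and its IDR is 0.0016. In the replicates alone its summits lie 1005 and 1036 bp upstream, and in replicate 2 the site also missed the threshold. The count was 1 with a window of 2000 bp, the most upstream start, the pooled list and the peaks the authors left out. It was also 1 at an IDR of at most 0.05 (1.42% of all genes). The median percentile of the 70 genes was 56.9; it was 49.5, below the 50 of the median gene, where only the nearest start took a peak, and without a replicate it ranged from 54.5 to 62.9. In the other settings it ranged from 55.4 to 60.8. The number of genes with a ranked peak ranged from 40 in replicate 1 alone, where 50.7% of all genes had one, to 67 with a window of 2000 bp, where 89.1% had one. GTCT or AGAC was found at 42 genes within 100 bp in place of 25 within 50 bp. The median summit position was −176 bp. It was −56 bp with a window of 500 bp upstream and −1023 bp with one of 2000 bp. A wider window admits more distant peaks. The median position was −228 bp in replicate 1 alone, −374 bp in replicate 2 alone and −164 bp in the pooled list. No paired analysis was possible because there is 1 group and no test. No read counts are given, so which absences come from depth cannot be told.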
